A study of Mus musculus with 6 samples.

Results

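The transcripts of 10 genes of the heparan sulfate system were followed in cells sorted as stroma from a mouse melanoma, in libraries that also held much melanoma RNA. They encode the glypican core proteins Gpc1, Gpc3, Gpc4 and Gpc6, the syndecan core proteins Sdc1, Sdc2, Sdc3 and Sdc4, and the heparan sulfate polymerases Ext1 and Ext2. They were taken by gene symbol from a count table of 53801 genes, as families chosen with earlier results of these data known, and all 10 were found and had enough counts to be tested. The cells were sorted as PDPN+PDGFRα+ from the CD45-CD31- fraction of MO5 tumors, which grow from the ovalbumin-expressing B16 melanoma line B16-OVA, in C57BL/6 mice aged 8 to 12 weeks per the study's methods. The 3 libraries called DTR come from ADAM12-DTR mice (DTR+). In these mice a transgene under the Adam12 promoter drives the diphtheria toxin receptor, so that diphtheria toxin (DT) kills cells that express ADAM12. Ctrl stands for 3 libraries from littermates without the transgene (DTR-). Both groups received DT, so the toxin itself is shared and the groups differ in the receptor. The labels number the libraries but do not tie them to single animals, so that the spread between libraries may be in part technical, and they give no day of collection. The comparison asks which transcripts differ in the sorted fraction when ADAM12+ cells are targeted by the toxin.

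Heparan sulfate is a long, sulfated sugar chain that cells carry on a small set of core proteins, where it binds growth factors, morphogens and chemokines and holds them at the cell surface or in the matrix. Glypicans are tied to the outer membrane by a lipid anchor and carry their chains close to the membrane, whereas syndecans cross the membrane and have a short cytoplasmic tail that binds scaffold proteins. Ext1 and Ext2 act together in the Golgi and build the chain by adding its sugars in alternation. In fibroblasts these molecules take part in adhesion, in the response to fibroblast growth factors and in Hedgehog and Wnt signaling.

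The glypican genes are shown by the codons at which the chains are attached, since the number of these sites differs among them. Heparan sulfate is added to serines that are followed by glycine. The stretches below are from the GENCODE M21 transcripts of GRCm38, 5′ to 3′ on the coding strand, with codon pairs for serine and glycine in capitals. For Gpc1, Gpc4 and Gpc6 the stretch crosses the junction of exons 8 and 9, so that its coordinates include an intron. Gpc3 lies within exon 7.
Gpc1, chr1:92858030-92858372, plus strand: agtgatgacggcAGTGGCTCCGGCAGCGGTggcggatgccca
Gpc3, chrX:52314868-52314897, minus strand: tgcattggaagcTCTGGTgacgggatggtg
Gpc4, chrX:52053680-52053817, minus strand: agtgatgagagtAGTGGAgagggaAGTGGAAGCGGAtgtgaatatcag
Gpc6, chr14:117964874-117974930, plus strand: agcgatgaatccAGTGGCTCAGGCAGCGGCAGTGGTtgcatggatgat
The stretch of Gpc6 holds 4 such codon pairs, those of Gpc1 and Gpc4 hold 3 each, and that of Gpc3 holds 1. Across the whole coding sequence there are 6 pairs in Gpc1, 2 in Gpc3, 4 in Gpc4 and 5 in Gpc6.

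The syndecans are shown by the end of their coding sequence, which encodes the end of the cytoplasmic tail, where PDZ-domain proteins bind. Each stretch holds the last 48 coding bases in exon 5, from the same transcripts, with the final 4 codons in capitals.
Sdc1, chr12:8791757-8791804, plus strand: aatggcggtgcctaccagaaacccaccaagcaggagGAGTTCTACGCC
Sdc2, chr15:33032490-33032537, plus strand: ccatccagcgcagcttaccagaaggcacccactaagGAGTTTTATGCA
Sdc3, chr4:130822759-130822806, plus strand: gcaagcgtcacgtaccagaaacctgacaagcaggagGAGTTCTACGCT
Sdc4, chr2:164426089-164426136, minus strand: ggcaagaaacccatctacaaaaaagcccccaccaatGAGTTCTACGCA
Sdc1 and Sdc3 were identical at 36 of the 48 bases and Sdc2 and Sdc4 at 27, whereas the other 4 pairs matched at 18 to 22. Sdc2, the one syndecan with a higher estimate in DTR, and Sdc4, its nearest relative by this measure, had estimates of opposite sign.

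Each library held 22339635 to 34271929 counts on genes. Levels are given as CPM, a gene's counts relative to the total of its library after scaling with edgeR's TMM factors, and on this scale 3 counts equal 0.0873 to 0.132 CPM. This floor covers counting error only. Adam12, the gene whose promoter drives the toxin receptor, was counted at 216, 181 and 175 CPM in Ctrl and at 165, 151 and 112 CPM in DTR, lower in each DTR library than in any Ctrl library. Its log2 fold change was -0.42 (adjusted p = 0.602 with edgeR's quasi-likelihood test). Of 9 fibroblast markers all were detected, with summed levels of 5207 to 13679 CPM in Ctrl and 5602 to 14138 CPM in DTR. The 10 melanocyte and melanoma markers were more abundant still, at 17111 to 20004 CPM in Ctrl and 16000 to 18847 CPM in DTR, although the gate was drawn for stroma, so that the label covers only part of the RNA. Keratinocyte markers summed to at most 7.09 CPM in any library, with Krt14 and Krt15 at or under 3 counts throughout. Because these are bulk libraries, fewer cells that express a gene and less RNA of it per cell cannot be told apart.

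Gpc6, Gpc3 and Ext1 had the highest differences among the members, each with a higher mean in DTR, and Gpc1, the most abundant glypican, had the lowest. The value of Gpc3 rested largely on DTR replicate 3. Its groups overlapped, and its log2 fold change was 1.45 with that library and 0.52 without it. The differences ran from 22.0% less Gpc1 to 2.73 times as much Gpc3, and 6 members had a higher and 4 a lower mean estimate in DTR. With edgeR's quasi-likelihood test, none of the 10 had a Benjamini-Hochberg adjusted p under 0.05, and neither did any of the 15133 genes tested (0% called). At the unadjusted level of 0.05 there were 5 of the 10, Gpc1 lower and Gpc3, Gpc6, Sdc2 and Ext1 higher, against 7.92% of all genes tested, 4.11% lower and 3.81% higher. The groups did not overlap for 4 of the 10, with Gpc1 lower and Gpc6, Sdc2 and Ext1 higher, against 14.5% of all genes, of which 6.32% were higher and 8.18% lower. The median log2 fold change of the members was 0.16, against -0.0029 for all genes tested. The median of the members also varied between libraries of the same group, with a pooled SD of 0.16 on the log2 scale. DESeq2's Wald test, a second count model, called Gpc6 and Ext1, 2 of the 10, against 0.151% of the genes to which it gave an adjusted p. edgeR's likelihood ratio test called Gpc6, 1 of the 10, against 0.145% of all genes.

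**Figure D1:**
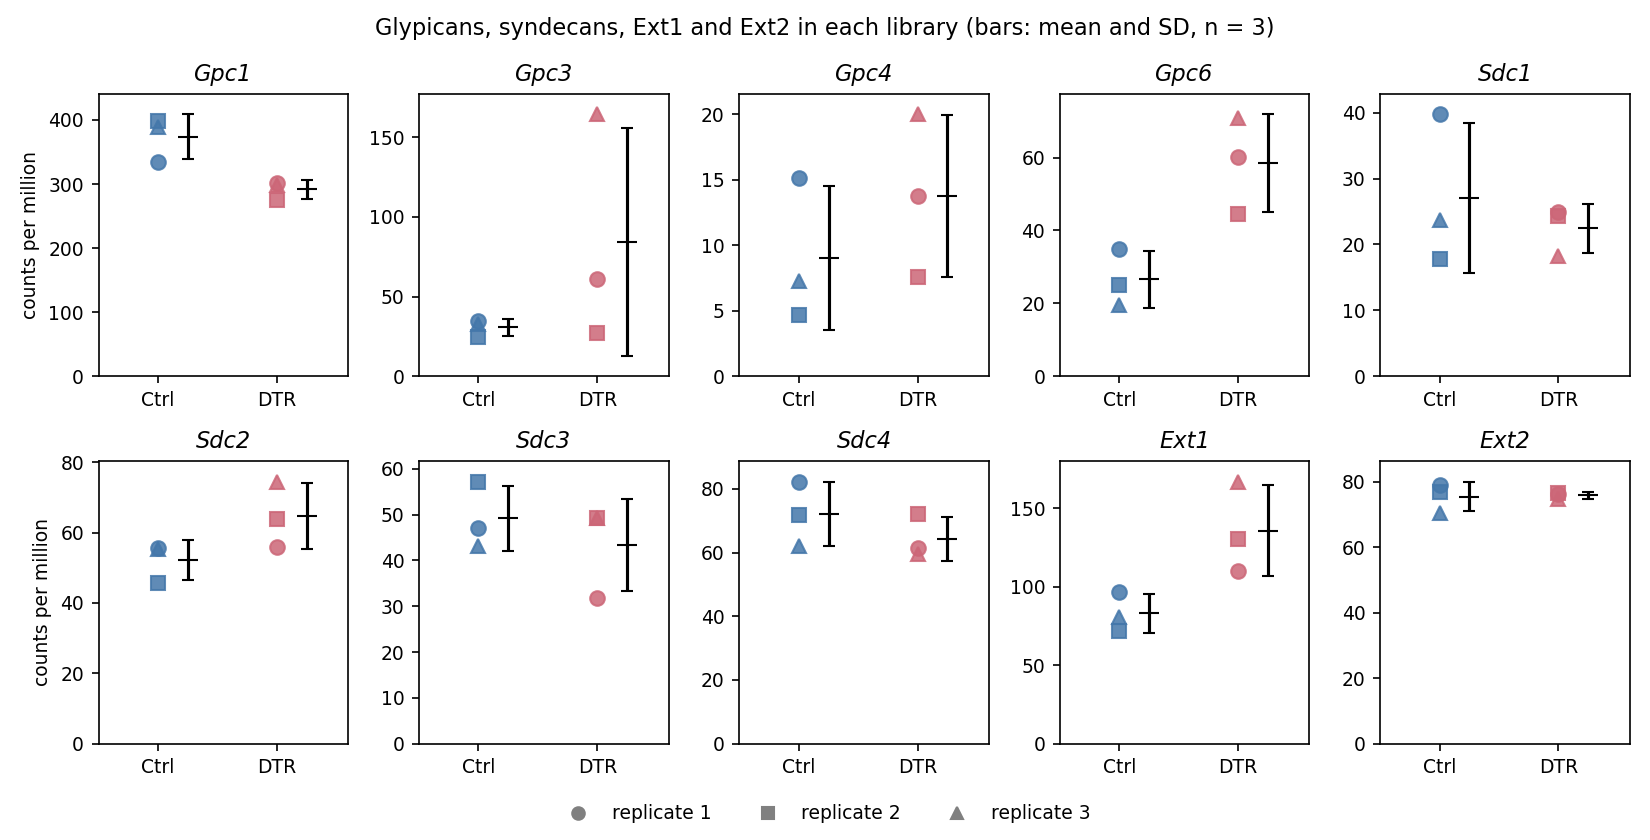
Level of each member in CPM (vertical axes, each from 0) in the 3 Ctrl and 3 DTR libraries, with 1 symbol per library and the mean and SD (n = 3) beside each group. The points of Gpc1, Gpc6, Sdc2 and Ext1 do not overlap between groups, and Gpc3 in DTR replicate 3 lies at 164 CPM, far above the rest.

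Among the glypicans, Gpc1, on chromosome 1 from 92831645 to 92860779 of GRCm38, was counted at 334, 398 and 389 CPM in Ctrl and at 302, 274 and 299 CPM in DTR. All 3 DTR libraries were below all 3 Ctrl libraries. The means were 374 ± 34.8 in Ctrl and 292 ± 15.2 in DTR (SD, n = 3 each), a log2 fold change of -0.36 with a standard error of 0.097. Gpc1 binds fibroblast growth factors and is made by many cell types. Its two-sided exact permutation test gave p = 0.1, the smallest that 3 libraries against 3 allow, and edgeR's quasi-likelihood test gave it an adjusted p of 0.602.

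Gpc6, which is needed for growth of the long bones and promotes Hedgehog signaling, lies on chromosome 14 from 116925315 to 117976544. It was counted at 35.0, 25.04 and 19.6 CPM in Ctrl and at 60.1, 44.4 and 70.9 CPM in DTR. The lowest DTR library was above the highest Ctrl library. The mean was 26.6 ± 7.80 in Ctrl and 58.5 ± 13.3 in DTR (SD, n = 3 each), and the fitted level was 2.20 times as high in DTR, a log2 fold change of 1.14 with a standard error of 0.24. The adjusted p of Gpc6 was 0.602 with edgeR's quasi-likelihood test and 0.00191 with DESeq2's Wald test, both with Benjamini-Hochberg adjustment. The exact permutation test gave p = 0.1. Gpc6 thus passed the threshold under one model and not under the other, at nearly the same estimated difference.

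Gpc3 and Gpc4 are neighbors on the X chromosome, 107.2 kb apart and on the same strand. Gpc3 restrains Hedgehog signaling and body growth, and it lies from 52272426 to 52613950. It was counted at 34.5, 24.7 and 33.04 CPM in Ctrl and at 61.0, 27.1 and 164 CPM in DTR. DTR replicate 3 was the highest by far and replicate 1 lay above Ctrl, whereas replicate 2 lay among the Ctrl values. The mean was 30.7 ± 5.30 in Ctrl and 84.2 ± 71.5 in DTR (SD, n = 3 each), with a log2 fold change of 1.45 and a standard error of 0.55. Without DTR replicate 3 this log2 fold change was 0.52, and without DTR replicate 2 it was 1.87. The exact permutation test gave p = 0.3.

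Gpc4, a glypican that modulates Wnt and bone morphogenetic protein signals, was the scarcest member. It was counted at 15.2, 4.65 and 7.24 CPM in Ctrl and at 13.7, 7.60 and 19.98 CPM in DTR. The groups overlapped, with Ctrl replicate 1 above 2 of the DTR libraries. Its log2 fold change was 0.61 with a standard error of 0.47 and a permutation p of 0.4 (exact), and it ran from 0.24 without DTR replicate 3 to 1.20 without Ctrl replicate 1. The other glypicans were absent or nearly so. Gpc2 had 0 counts in every library, and Gpc5, which lies 400.1 kb upstream of Gpc6 on the same strand, had 1 to 12 counts per library.

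Among the syndecans, Sdc2 was the only one with a higher mean in DTR, and it was also the only one whose groups did not overlap. Sdc2 is the syndecan typical of fibroblasts and other mesenchymal cells and lies on chromosome 15 from 32920723 to 33034935. It was counted at 55.5, 45.6 and 55.4 CPM in Ctrl and at 55.9, 63.9 and 74.4 CPM in DTR. The lowest DTR value lay just above the highest Ctrl value, and with library size in place of TMM scaling the groups overlapped. The log2 fold change of Sdc2 was 0.31 with a standard error of 0.13, and its adjusted p was 0.629 with edgeR's quasi-likelihood test and 0.771 with DESeq2's Wald test.

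Sdc4, which joins integrins at focal adhesions, was the syndecan with the highest level per length of transcript. It was counted at 82.2, 71.9 and 62.1 CPM in Ctrl and at 61.3, 72.2 and 59.5 CPM in DTR. The groups overlapped, and the log2 fold change was -0.16 with a standard error of 0.13. Sdc3, best known from neural tissue, was counted at 47.1, 57.1 and 43.2 CPM in Ctrl and at 31.7, 49.2 and 49.2 CPM in DTR. Its log2 fold change was -0.18 with a standard error of 0.19, and without DTR replicate 1 it was 0.015. Sdc1, a syndecan of epithelial and plasma cells, was counted at 39.7, 17.8 and 23.7 CPM in Ctrl and at 24.9, 24.3 and 18.2 CPM in DTR. A single library, Ctrl replicate 1, held the highest value, and the log2 fold change of Sdc1 turned from -0.27 with a standard error of 0.28 to 0.11 without it. Markers of plasma cells, which belong to the lineage that the CD45- gate removes, overlapped between the groups, with summed levels of 17.2 to 61.5 CPM in Ctrl and 46.3 to 84.9 CPM in DTR, and Igkc at 0 counts in every library. Their part in the Sdc1 values was not tested.

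The polymerase subunits parted from each other. Ext1, on chromosome 15 from 53064038 to 53346159, was counted at 96.4, 71.9 and 80.5 CPM in Ctrl and at 109.9, 130.4 and 167 CPM in DTR. Each DTR library was above each Ctrl library. The mean was 82.9 ± 12.5 in Ctrl and 136 ± 28.7 in DTR (SD, n = 3 each), and the fitted level was 1.64 times as high in DTR, with a log2 fold change of 0.71 and a standard error of 0.17. Ext1 had an adjusted p of 0.602 with edgeR's quasi-likelihood test and of 0.0426 with DESeq2's Wald test, and an exact permutation p of 0.1.

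Ext2, on chromosome 2 from 93661028 to 93822568, was the steadiest member. It was counted at 79.1, 77.0 and 70.5 CPM in Ctrl and at 76.4, 76.5 and 74.7 CPM in DTR, a range of 1.12 times from the lowest to the highest library. Its log2 fold change was 0.0069 with a standard error of 0.085. Because both genes were counted in the same libraries, their ratio does not depend on how libraries are scaled. For each count of Ext2 there were 1.22, 0.934 and 1.14 counts of Ext1 in Ctrl, and 1.44, 1.71 and 2.23 in DTR. The ratio was higher in each DTR library, with a difference of 0.69 on the log2 scale, or 0.52 to 0.84 when any one library was dropped. This ratio was chosen after the values were seen and is given as a description.

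**Figure D2:**
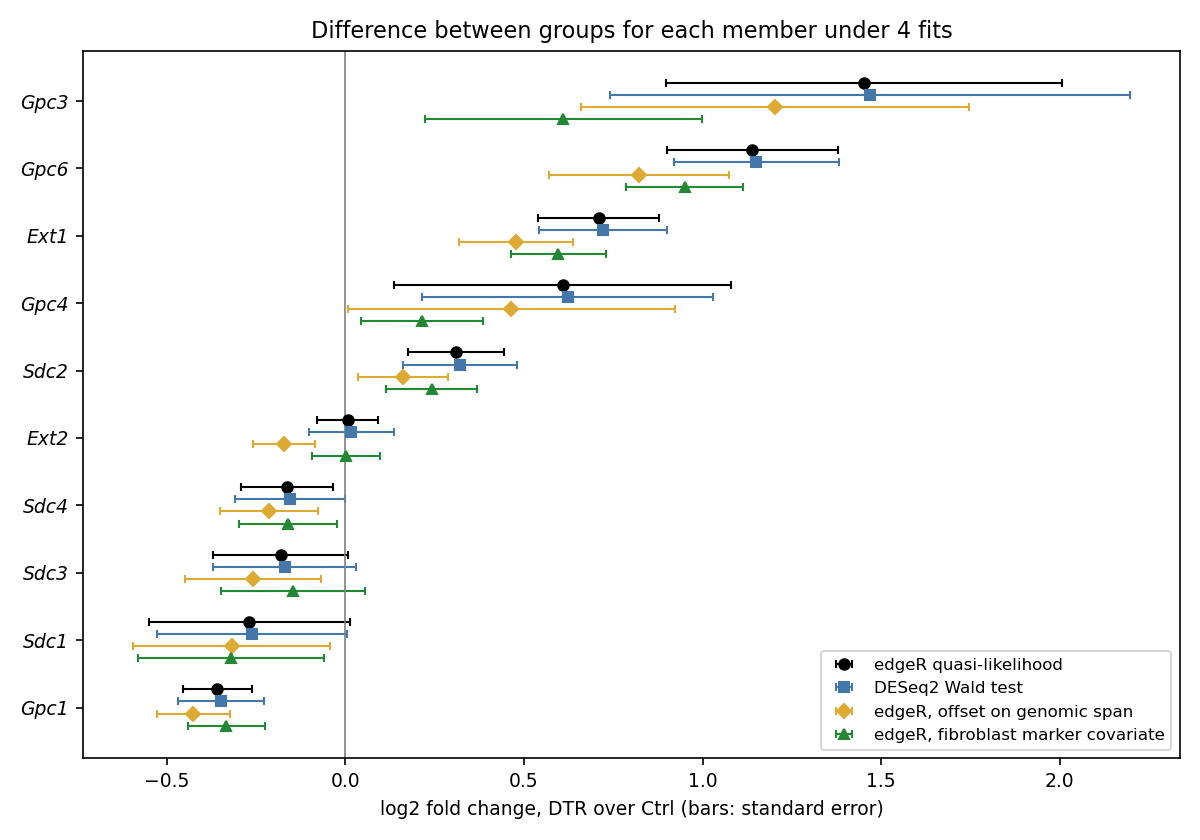
Log2 fold change of each member, DTR over Ctrl (horizontal axis, bars are standard errors), under 4 fits: edgeR's quasi-likelihood test, DESeq2's Wald test, edgeR with an offset that removes a trend with genomic span, and edgeR with the mean of 9 fibroblast markers as a covariate. Gpc6 stays between 0.82 and 1.15 and Ext1 between 0.48 and 0.72, whereas Gpc3 drops from 1.45 to 0.61 with the covariate and Ext2 lies at or below 0.017 throughout.

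Calls by DESeq2 changed when a library was left out. Leaving one out also makes a group smaller and changes the number of genes given an adjusted p, from 7860 to 19181. Lost calls therefore cannot be put down to particular libraries. With its Wald test and one library left out at a time, Gpc6 was called in 3 of 6 fits and Ext1 in 2 of 6. These fits differed in how much they called, from 0.109% of all genes without Ctrl replicate 2 to 2.56% without DTR replicate 1, and the fits that called members were the 3 with the highest shares. For Gpc6 the adjusted p was 0.115 with Ctrl replicate 2 left out, 0.0907 with Ctrl replicate 3 left out and 0.0863 with DTR replicate 3 left out. For Ext1 it was 0.445 without Ctrl replicate 2, 0.332 without Ctrl replicate 3, 0.102 without DTR replicate 2 and 0.292 without DTR replicate 3. Gpc3 was called in only 1 of these fits, without DTR replicate 2 (DESeq2's adjusted p = 0.000502), and Gpc1 in 1, without Ctrl replicate 1 (DESeq2's adjusted p = 0.0255). The estimated differences kept their direction for all of these genes, from 0.96 to 1.39 for Gpc6 and from 0.53 to 0.86 for Ext1 on the log2 scale with edgeR.

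To compare members with each other, CPM were divided by the length of each gene's annotated exons in kb. On this scale Gpc1 was highest, with a median over the 6 libraries of 61.6 CPM per kb and a range of 53.2 to 77.2, and its lowest library was above the highest library of Sdc4. Sdc4 followed with a median of 26.3, and no library of it fell within the range of Sdc2. Below these by median, Sdc2 (15.8), Ext1 (12.8), Gpc3 (12.5) and Ext2 (10.4) overlapped with their neighbors in the order. Gpc3 had the widest range, 9.17 to 61.1. Its DTR replicate 3 lay above every library of Sdc4 and within the range of Gpc1. Sdc3 (8.04), Sdc1 (6.30), Gpc6 (6.18) and Gpc4 (4.02) had the lowest medians, and neighbors among them also overlapped. Sdc3 and Ext2, next to each other in the order, did not overlap (highest 9.54 and lowest 9.62), but single libraries of Sdc1 (10.4) and Gpc6 (11.04) reached into or above the range of Ext2.

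The share of each glypican among the 4 is given for each library as a description, with no test. Gpc1 took 73.0%, 83.9% and 80.7% of the 4 glypicans per length in Ctrl and 61.1%, 72.8% and 42.1% in DTR. The highest DTR share, in replicate 2, was just below the lowest Ctrl share, in replicate 1. Gpc6 took 6.14%, 4.23% and 3.27% in Ctrl and 9.77%, 9.46% and 8.02% in DTR. Its share was therefore higher in each DTR library even where Gpc3 was not. Gpc3 took 9.96% to 14.4% in Ctrl, and 23.7%, 13.8% and 44.4% in DTR, where replicate 3 held more Gpc3 than Gpc1 per length. The summed level of the 4 glypicans overlapped between the groups, at 88.7 to 93.5 CPM per kb in Ctrl and 73.0 to 138 in DTR.

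The same shares were taken for the syndecans. Sdc4 took 45.5% to 51.0% of the 4 syndecans in Ctrl and 40.6% to 46.5% in DTR. Sdc2 took 23.7%, 23.4% and 29.3% in Ctrl and 30.6%, 29.7% and 36.7% in DTR, without overlap. The summed level of the syndecans overlapped, at 53.5 to 66.3 CPM per kb in Ctrl and 51.8 to 61.0 in DTR. These shares were computed after the values were seen and are descriptions.

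**Figure D3:**
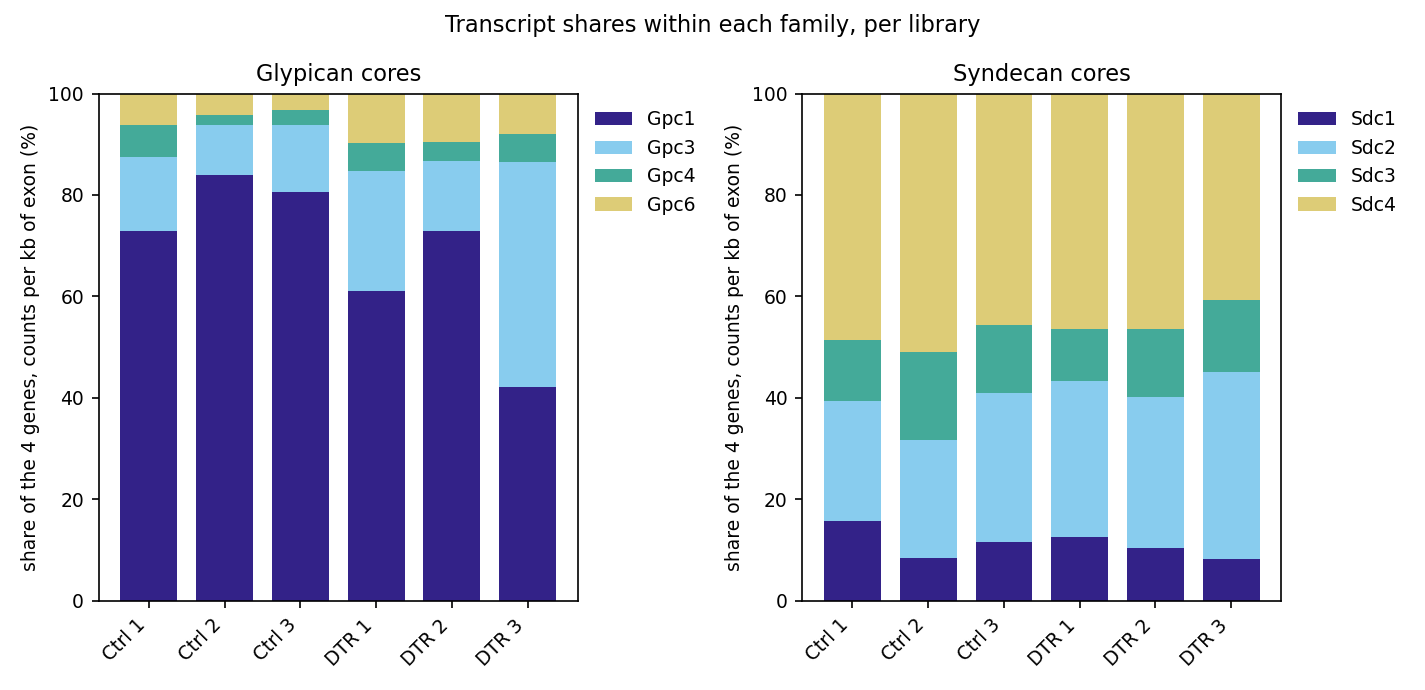
Share of each gene among the 4 glypicans (left) and the 4 syndecans (right) in each library, as a percent of counts per kb of exon. Gpc1 makes up 73.0% to 83.9% of the glypican transcripts in Ctrl and 42.1% to 72.8% in DTR, and Sdc4 is the largest syndecan share in each library.

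The level of fibroblast marker transcripts varied within each group. The mean log2 CPM of the 9 fibroblast markers was 8.27, 6.93 and 7.38 in Ctrl and 7.93, 7.25 and 8.62 in DTR. The groups overlapped, the difference of the means was 0.41, and 8 of the 9 markers had a higher estimate in DTR, none of them at an unadjusted p under 0.05 with edgeR. Gpc4 varied less relative to these markers than in CPM, which varied by 4.30 times. Its log2 level relative to them was -4.30, -4.57 and -4.43 in Ctrl and -4.10, -4.23 and -4.26 in DTR. On this measure Gpc4 was higher in DTR without overlap, by 0.23, as 1 of the 10 members. Of all genes tested, 1.48% did not overlap between the groups on this measure, and 0.767% were higher in DTR. Gpc3 relative to the markers lay between -3.14 and -2.28 in Ctrl and at -1.98, -2.46 and -1.26 in DTR.

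With the marker mean as a covariate in edgeR, a fit chosen after seeing the data, the log2 fold change of Gpc3 was 0.61 (standard error 0.39) and that of Gpc4 0.21 (standard error 0.17). Gpc6 kept 0.95 (standard error 0.16) and Ext1 0.60 (standard error 0.13), while Sdc2 had 0.24 (standard error 0.13) and Gpc1 -0.33 (standard error 0.11). None of the 10 members had an adjusted p under 0.05 with this covariate in edgeR's quasi-likelihood test. DESeq2's Wald test with the same covariate called Gpc6 (adjusted p = 0.000656) and Ext1 (adjusted p = 0.0494). Expressed relative to the fibroblast markers within each library, however, the groups overlapped for both Gpc6 and Ext1, with differences of 0.73 and 0.29 on the log2 scale. Relative to the melanoma markers the groups did not overlap for Gpc6, Ext1 and Sdc2, which were higher in DTR by 1.24, 0.80 and 0.41. On that measure 13.6% of all genes tested did not overlap, with 11.6% higher and 2.08% lower in DTR.

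Gpc1 was steadier against the melanoma markers than against the fibroblast markers, a contrast that the reference in part sets. The mean log2 CPM of the melanoma markers itself varied less, from 9.71 to 9.96, than that of the fibroblast markers, from 6.93 to 8.62. The contrast is therefore not particular to Gpc1 and does not tell which cells made it. Relative to the mean log2 CPM of the 10 melanoma markers, Gpc1 lay at -1.35, -1.32 and -1.32 in Ctrl and at -1.49, -1.76 and -1.48 in DTR, again without overlap and with a difference of -0.25. The melanoma markers themselves had a difference of -0.10 and overlapped between the groups. Relative to the fibroblast markers Gpc1 lay between 0.12 and 1.71 in Ctrl and between -0.39 and 0.86 in DTR. Pericyte and smooth muscle markers had lower estimates in DTR for 6 of 6 tested, with overlapping sums of 55.5 to 98.1 CPM in Ctrl and 43.5 to 59.5 CPM in DTR, and their part in the lower Gpc1 was not tested. The 7 endothelial markers, of cells that the CD31- gate removes, summed to 20.3 to 23.2 CPM in Ctrl and 27.3 to 37.4 CPM in DTR, without overlap. Most of this sum was Vwf, at 12.1 to 15.5 CPM in Ctrl and 19.8 to 21.3 CPM in DTR. Pecam1 and Kdr overlapped between the groups, Cdh5 had 1.37 CPM or less in each library with a lower estimate in DTR (log2 fold change -1.53), and Emcn, Tie1 and Cldn5 were at or under 3 counts throughout. The part of endothelial RNA in the higher values of Gpc6, Sdc2 and Ext1 was not tested.

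The members that were higher in DTR are also the long genes. By its annotated start and end, Gpc6 spans 1051.2 kb, Gpc3 341.5 kb, Ext1 282.1 kb, Sdc2 114.2 kb and Gpc4 112.2 kb. The 4 members with lower estimates, Sdc3, Gpc1, Sdc1 and Sdc4, span 19.6 to 33.8 kb, and Ext2, which did not move, spans 161.5 kb. Across the 10 members, which share the same 6 libraries, log2 span and log2 fold change had r = 0.88, against r = 0.13 across 15121 tested genes. Long genes as a whole were shifted, with a median log2 fold change of 0.082 for 1633 genes of 100 to 300 kb and of 0.23 for 39 genes above 1000 kb. Among genes of 100 to 300 kb, 11.1% were higher in DTR without overlap. Among those of 300 to 1000 kb 11.1% were, and among those above 1000 kb 17.9%. In the same 3 classes 9.25%, 13.2% and 20.5% were higher at an unadjusted p under 0.05 with edgeR's quasi-likelihood test, against 3.81% of all genes tested.

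An offset that removes this trend from each library lowered the log2 fold changes of the long members and left their order, and the members' r with log2 span was 0.84 under it. With it, edgeR gave 0.82 for Gpc6 (standard error 0.25), 0.48 for Ext1 (standard error 0.16), 1.20 for Gpc3 (standard error 0.54) and 0.16 for Sdc2 (standard error 0.13). Ext2 turned to -0.17 (standard error 0.087), and Gpc1 went to -0.43 (standard error 0.10). The median over the members was -0.0057, against -0.075 for all genes tested under the same offset. With the offset, DESeq2's Wald test no longer called Gpc6 (adjusted p = 0.0984) or Ext1 (adjusted p = 0.261), a combination chosen after seeing the data. The part of gene length in the members' differences was not tested beyond this offset.

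**Figure D4:**
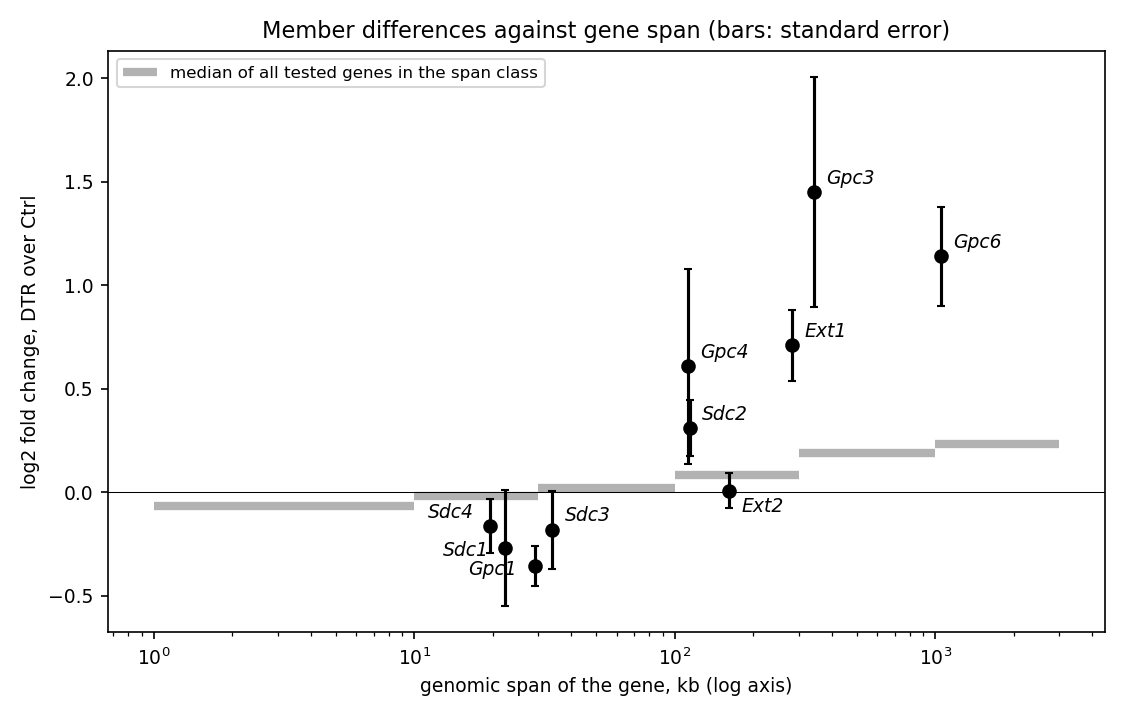
Log2 fold change of each member, DTR over Ctrl (points, bars are standard errors), against the genomic span of the gene in kb on a log axis, with grey bars at the median of all tested genes of each span class. The class medians rise from -0.065 under 10 kb to 0.23 above 1000 kb, while the members run from -0.36 to 1.45.

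The other genes that make, modify and break down heparan sulfate were read from lists of 56 genes, of which 45 had enough counts for the test. With edgeR's quasi-likelihood test none of the 45 passed after adjustment, and 4 reached an unadjusted p under 0.05, all with lower estimates in DTR, against 4.11% of all genes tested that were lower at that level. There was no overlap between the groups for 10 of the 45, against 14.5% of all genes tested. Of these, 8 were lower and 2 higher, against 8.18% and 6.32% of all genes. The median log2 fold change of the 45 was -0.0084.

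The 4 genes at an unadjusted p under 0.05 act at different steps. Extl1, an EXT-like glycosyltransferase, had 38.6, 43.1 and 37.9 CPM in Ctrl and 33.7, 30.7 and 27.4 CPM in DTR, a log2 fold change of -0.38 with a standard error of 0.12. Slc35b2, which carries the sulfate donor PAPS into the Golgi, had 44.8, 39.4 and 42.3 CPM in Ctrl and 34.1, 33.1 and 35.3 CPM in DTR, a log2 fold change of -0.30 with a standard error of 0.098. Agrn, the basement membrane proteoglycan agrin, had a log2 fold change of -0.21 with a standard error of 0.081. Naglu, a lysosomal enzyme that removes N-acetylglucosamine from the chain, had one of -0.27 with a standard error of 0.092. For these 4 genes the groups did not overlap, and the adjusted p was 0.602 in each case with edgeR's quasi-likelihood test.

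Of the 10 genes listed for lysosomal breakdown of heparan sulfate, 8 had lower and 2 higher estimates in DTR, with a median log2 fold change of -0.16. The list includes Sumf1 (0.023), which activates sulfatases and is not itself a lysosomal enzyme. The groups did not overlap for 4 of the 10, all lower, against 8.18% of all genes tested that were lower without overlap. These were Naglu, the iduronidase Idua (-0.19), the sulfamidase Sgsh (-0.27) and the acetyltransferase Hgsnat (-0.17). In linker assembly, which starts the chain on its serine, the first enzyme Xylt1 was higher without overlap (log2 fold change 0.21) and the last, B3gat3, was lower without overlap (-0.28), while the median of the 7 genes was -0.014. Cask, a scaffold protein that binds syndecan tails, was higher without overlap (0.22). With the offset for genomic span the estimates of Xylt1 and Cask turned to -0.022 and -0.024.

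In the 3 N-sulfation genes tested all estimates were lower, with a median of -0.14, and in the 6 genes of epimerization and O-sulfation 5 were higher, with a median of 0.27. None of these 9 had an unadjusted p under 0.05 or groups without overlap. The highest log2 fold change in the lists was that of Sulf1, an extracellular enzyme that removes 6-O-sulfates from finished chains. Sulf1 was counted at 115, 46.2 and 45.8 CPM in Ctrl and at 132, 75.4 and 182 CPM in DTR, with overlap, a log2 fold change of 0.91 and a standard error of 0.42. The lowest was that of Col18a1, the collagen XVIII proteoglycan, with 83.3, 42.3 and 80.8 CPM in Ctrl, 34.2, 57.3 and 60.7 CPM in DTR, and a log2 fold change of -0.44 with a standard error of 0.29.

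**Figure D5:**
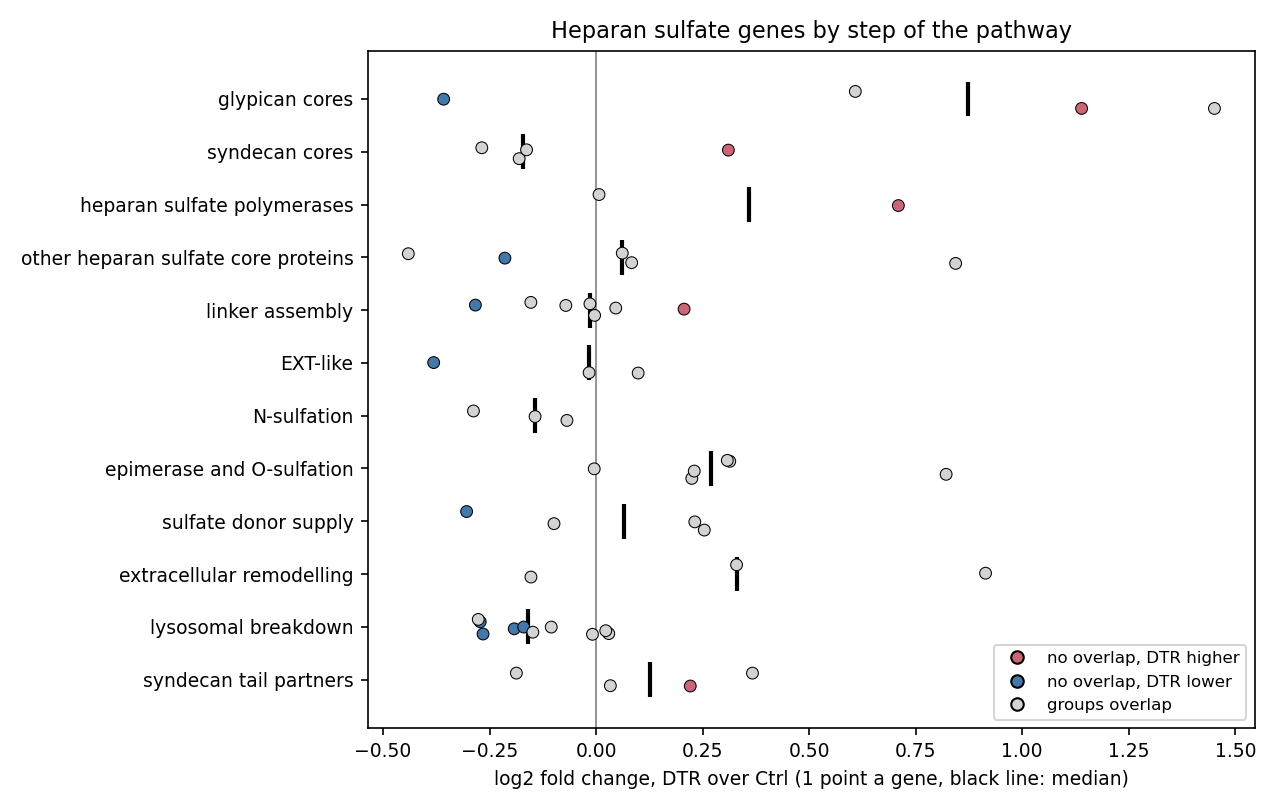
Log2 fold change, DTR over Ctrl (horizontal axis), of the members and of the other tested heparan sulfate genes by step of the pathway, with 1 point a gene, colors for genes whose groups do not overlap and a black line at each list's median. Gpc3 at 1.45, a value that rests largely on DTR replicate 3, and Gpc6 at 1.14 lie beyond all other genes shown. In the lysosomal breakdown list 8 of the 10 genes lie below 0.

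Some members varied together from library to library. Over the 6 libraries, which share their depth and cell makeup, log2 CPM of Sdc2 and Ext1 had r = 0.95, and with the group means removed r = 0.93. This was the highest r of all pairs of members, and r was not computed for pairs of other genes. Both genes lie on chromosome 15 but are not neighbors, as Sdc2 ends at 33034935 and Ext1 starts at 53064038. Gpc6 and Ext1 had r = 0.88, which was 0.53 once the group means were removed, and the neighbors Gpc3 and Gpc4 had r = 0.81 and 0.74. The lowest value was that of Gpc1 and Ext1, with r = -0.87, and -0.49 with the group means removed.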

How the data were processed

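RNA-seq was analysed for 6 libraries, 3 from Ctrl and 3 from DTR mice. Per the labels and the study's methods, the authors made stranded total RNA libraries, trimmed reads with cutadapt 3.4, aligned them to GRCm38 with STAR 2.7.3a and counted them per gene with featureCounts 2.0.1, with strand information. Their deposited raw counts per gene, without normalization, were used. Strand-specific counting separates members from genes on the other strand. The 6 columns of scaled counts and the authors' own DESeq2 comparison (fold changes and p-values) were not used. Total counts were 22339635 to 34271929 per library, and p-values measure the spread between these libraries.

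The members and lists were chosen with earlier results of these data known. Genes were kept by edgeR's filterByExpr (minimum count 10, minimum total 15), which left 15133, scaled by TMM and tested with edgeR's quasi-likelihood test, two-sided, with Benjamini-Hochberg adjustment over all of them and a threshold of 0.05. For single genes, log2(CPM + 0.5) was also compared by exact permutation (two-sided). A standard error is the absolute log2 fold change divided by the root of F. All members were named, with Adam12. Of the pathway lists, genes with an unadjusted p under 0.05 or without overlap were named, and the lowest and highest log2 fold change. Positions, spans, exon lengths and sequences come from GENCODE M21. Alternatives were DESeq2's size factors, library size alone, other count filters, robust moderation, DESeq2's Wald test, a block for the replicate number, a loess offset on log2 genomic span (loess span 0.5, fitted on genes passing the filter), both together, and each library left out. After seeing the data, a likelihood ratio test, adjusted deviances, limma voom, a fibroblast marker covariate, and DESeq2 joined with that covariate, the block, the offset or the loss of one library were added. In all, 29 fits were made. The steps were tested on simulated data. Models were fitted in R 4.3.3 with edgeR 4.0.16, DESeq2 1.42.0 and limma 3.58.1. Figures were drawn with matplotlib 3.10.9 under Python 3.11.15.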

Additional observations from a re-analysis of the deposited data

How the results depend on the processing

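None of the 10 members passed the threshold in the edgeR quasi-likelihood fits or with limma voom. DESeq2's Wald test called 2 members, Gpc6 and Ext1, also with a replicate block or with the fibroblast marker covariate, and edgeR's likelihood ratio test called 1, Gpc6. With DESeq2 and each library left out in turn, 0 to 3 members were called, where these fits called 0.109% to 2.56% of all genes. Of the other pathway genes 0 passed in the edgeR and full DESeq2 fits, and 0 to 1 with DESeq2 and a library left out, Sulf1 without Ctrl replicate 1. The number of members without overlap was 4, 3 with library size alone (13.5% of all genes), and 4 to 6 with a library left out, where 23.1% to 28.9% of all genes had no overlap. The median log2 fold change of the members was 0.16 and moved to -0.0057 with the span offset, in edgeR with or without the block and in DESeq2 (-0.0058). Estimates turned for Ext2 with the offset (-0.17, with DESeq2 -0.17) and without Ctrl replicate 3 (-0.037, DESeq2 -0.031, in a range of -0.037 to 0.041 in edgeR and up to 0.048 in DESeq2), for Sdc1 without Ctrl replicate 1 (0.11, DESeq2 0.12, lowest -0.50 and -0.49), for Sdc3 without DTR replicate 1 (0.015, DESeq2 0.018, lowest -0.28 in both), and with the offset for Xylt1 (-0.022, with the block -0.027, DESeq2 -0.022) and Cask (-0.024, with the block -0.023, DESeq2 -0.024). The cause was not tested. Same-numbered libraries of the groups correlated in their deviations with r = 0.11, 0.13 and -0.042, so that the numbers were not taken to pair animals. The replicate block left 0 members called in edgeR, with a median log2 fold change of 0.16, and not every library correlated best with its own number. At these depths Gpc2 and Gpc5 were too scarce to be tested.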
